A study of Mus musculus with 2 samples.

Results

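Cholesterol and fatty acid synthesis was followed through 30 genes in single cells of subcutaneous mouse tumours. The genes were set by name and comprise 7 of the mevalonate arm, 11 of the squalene and sterol arm, 4 regulators or sterol carriers and 8 of fatty acid synthesis and desaturation. All 30 were listed in both libraries, out of 27188 genes listed in either one, and membership is by name with no cutoff on a measured value.

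The tumours were grown from MC38, a mouse colon carcinoma line, placed under the skin of C57BL/6 mice whose genotype is labelled WT. One library, Control, came from tumours with no light treatment named in its labels. The other, PBM, belongs to the group given photobiomodulation, a light treatment in pulses, every day from day 7, and all tumours were taken on day 14. CD45+ cells (CD45 is the surface protein of blood-derived cells) were sorted, and the cells of a condition were pooled before 1 3′ single-cell library was made of each. The number of mice in a pool and their age are not given in the sources used here. With 1 library per group, the treatment, the pool of mice and the library cannot be told apart, no p-value was computed, and all intervals cover counting error only.

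Animal cells make cholesterol from acetyl-CoA, first through mevalonate to farnesyl diphosphate and then through squalene and lanosterol to the finished sterol. The transcription factor SREBP2, encoded by Srebf2, is released from the endoplasmic reticulum when membrane sterol is low and turns these genes on, while Insig1 holds it back when sterol is plentiful. SREBP1, encoded by Srebf1, drives the fatty acid genes, among them Fasn and the desaturases. Dividing and activated lymphocytes need new membrane and are known to raise both programmes, and oxysterols in macrophages act on the LXR receptors, which favour cholesterol export.

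The promoters shown are those of 4 genes that were more than 2-fold lower in T cells of the PBM library. They are shown because they carry the CCAAT box, the letters bound by NF-Y, a factor known to act beside SREBP. Hsd17b7, Lss and Insig1 were also more than 2-fold lower and carry the box but are not shown, and Fads2 was lower without one. Since the 4 were picked for both traits, nothing on a link between the box and the level is read from them. They come from RefSeq (build GRCm38.p6), read 5′ to 3′ on the gene's strand from 250 bases before to 50 after the transcription start, with matches to CCAAT and TCACNCCAC (a form of the sterol regulatory element, N being any base) on either strand in capitals. Hmgcs1 lies at chr13:119690101-119690400 on the plus strand, Idi1 at chr13:8885356-8885655 on the plus strand, Cyp51 at chr5:4104648-4104947 on the minus strand and Msmo1 at chr8:64733529-64733828 on the minus strand.
Hmgcs1: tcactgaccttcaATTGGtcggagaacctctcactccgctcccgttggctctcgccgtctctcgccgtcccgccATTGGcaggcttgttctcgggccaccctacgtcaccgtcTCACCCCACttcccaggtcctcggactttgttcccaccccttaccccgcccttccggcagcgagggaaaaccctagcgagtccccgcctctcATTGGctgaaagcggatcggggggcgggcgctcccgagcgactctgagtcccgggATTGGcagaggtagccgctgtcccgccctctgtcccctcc
Idi1: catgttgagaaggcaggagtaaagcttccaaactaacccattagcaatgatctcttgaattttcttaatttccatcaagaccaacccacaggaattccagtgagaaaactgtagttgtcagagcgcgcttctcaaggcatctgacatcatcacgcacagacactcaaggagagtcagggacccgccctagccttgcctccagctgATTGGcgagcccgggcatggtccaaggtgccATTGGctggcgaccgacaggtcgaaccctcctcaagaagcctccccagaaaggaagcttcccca
Cyp51: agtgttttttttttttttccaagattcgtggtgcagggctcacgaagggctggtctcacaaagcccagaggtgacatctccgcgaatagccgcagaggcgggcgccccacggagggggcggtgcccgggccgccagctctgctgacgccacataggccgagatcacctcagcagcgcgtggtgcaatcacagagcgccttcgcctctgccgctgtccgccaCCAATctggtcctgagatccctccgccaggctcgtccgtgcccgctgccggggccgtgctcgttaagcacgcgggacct
Msmo1: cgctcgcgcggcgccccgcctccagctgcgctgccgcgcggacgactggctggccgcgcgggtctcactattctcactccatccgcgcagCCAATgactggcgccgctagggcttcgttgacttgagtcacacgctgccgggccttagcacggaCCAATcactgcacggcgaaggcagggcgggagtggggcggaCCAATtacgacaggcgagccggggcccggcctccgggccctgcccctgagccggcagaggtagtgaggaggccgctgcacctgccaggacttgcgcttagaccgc
In Hmgcs1 the sterol element TCACCCCAC began 137 bases before the start and overlapped none of the CCAAT boxes. The single CCAAT box of Cyp51 began 29 bases before the start, those of Idi1 45 and 14 bases before it, and those of Msmo1 160, 96 and 55 bases before it. Of the 23 genes of the set with a promoter in the RefSeq table, 19 (82.6%) held a CCAAT box, against 41.1% of all 27025 genes there. It was present in 14 of 15 cholesterol synthesis genes, 3 of 3 regulators and 2 of 5 fatty acid genes. Genes with the box included Tm7sf2 and Dhcr7, which differed between the libraries by less than their counting intervals in T cells. The element TCACNCCAC was found in Hmgcs1 alone of the 23, against 1.44% of all genes. A match is a description of the letters, and these tables hold no measure of binding.

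The control library kept 11099 cells and the PBM library 13062, with a median of 5621.5 and 5143.5 UMIs (unique molecular identifiers, 1 per captured RNA molecule) per barcode. Cells were grouped without using the 30 genes, and the make-up of the libraries differed. Naive-like T cells numbered 23 in Control and 4566 in PBM, effector T cells 1601 and 39, B cells 205 and 5608, NK cells 1324 and 204, macrophages 3244 and 64, and monocytes 972 and 91. A Sparc-led group of 1212 control cells had 7 cells in PBM. Each class carried its own markers. The 11 B cell markers summed to 10974 and 10493 CPM (UMIs per 1000000 UMIs of the class) in the B cells of Control and PBM, and the 10 naive-like T markers to 5494 and 3692 CPM in that class. Effector T markers summed to 13466 and 16297 CPM, with Tigit at 0 in the 39 PBM cells, and NK cells shared much of that list at 9354 and 17160 CPM. The 12 macrophage markers summed to 20140 and 13439 CPM and the 12 monocyte markers to 7479 and 7409 CPM in their classes. The label "tumor cells" did not describe most barcodes, which had Ptprc (CD45) between 188 and 1004 CPM in the immune classes.

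The Sparc-led cells did not carry the marker of the sort: Ptprc stood at 28.5 CPM. They had 1604 CPM of Sparc, 809 of Bgn and 656 of Col3a1, all extracellular matrix genes. Epithelial genes were near 0, with Epcam at 0.144 CPM, Krt8 at 0.240 and Krt18 at 0. They are called Sparc-led here and given no cell type name.

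Among the named classes cholesterol synthesis genes were most abundant in the Sparc-led cells, and they were lower in each of the 6 immune classes of the PBM library than in the same class of Control, although the intervals overlapped in naive-like T cells. Summed over the 18 genes of both arms, the control level was 1101 CPM in Sparc-led cells (95% Poisson interval 1087 to 1115). Macrophages followed at 482 CPM (475 to 489) and monocytes at 462 CPM (442 to 484), whose intervals overlapped. Effector T cells stood at 424 CPM (411 to 436) and NK cells at 391 CPM (378 to 403). B cells and the 23 naive-like T cells were lowest, both at 257 CPM (219 to 300.2 and 152 to 406).

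In the PBM library the order was flatter. The 39 effector T cells had 307 CPM (236 to 392), monocytes 247 CPM (193 to 311), NK cells 219 CPM (191 to 250.2), naive-like T cells 199 CPM (194 to 204), B cells 195.0 CPM (189.8 to 200.2) and macrophages 189 CPM (138 to 252). Each interval overlapped that of its neighbour in this order. The 7 fatty acid genes other than Scd1 were closer between libraries: 169.5 and 130.4 CPM in all T cells of Control and PBM, 216 and 233 in NK cells, 218 and 185 in macrophages, 145 and 118 in monocytes and 150.3 and 139 in B cells.

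**Figure D1:**
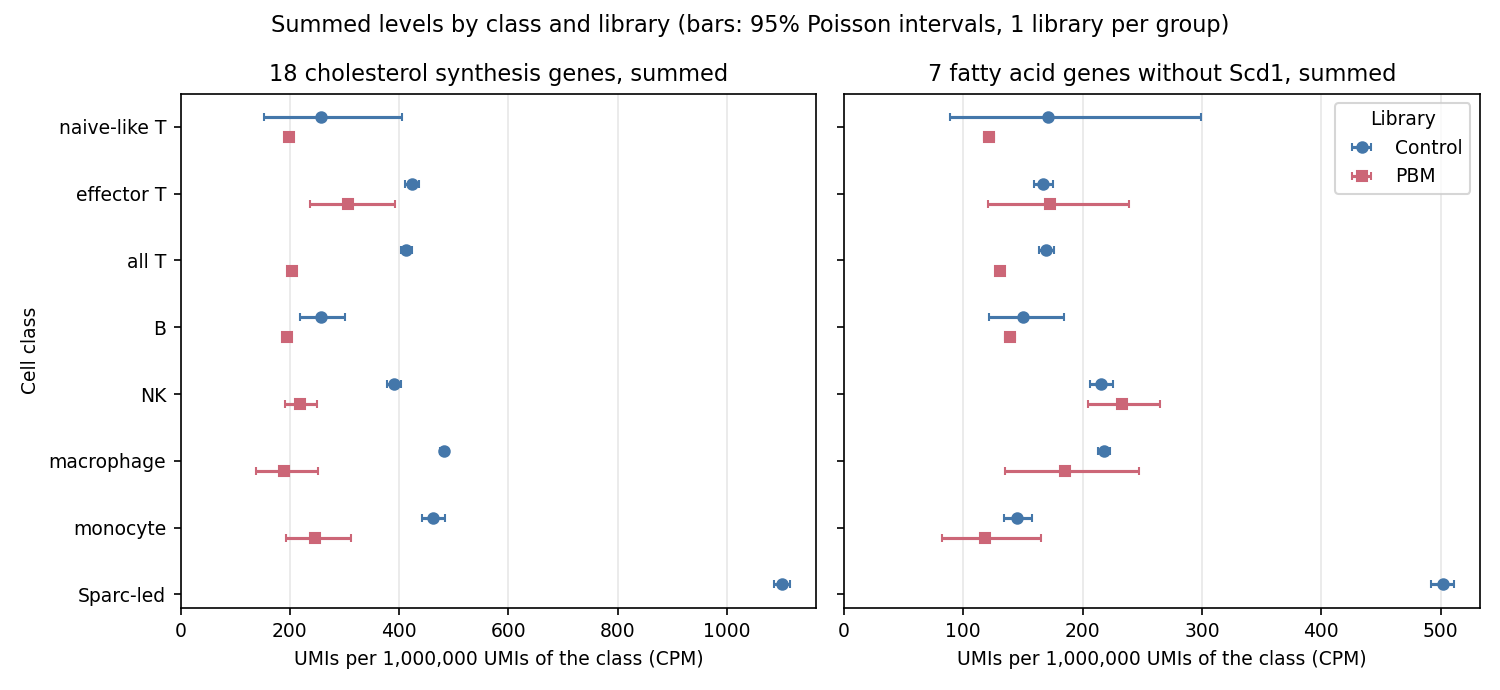
Summed levels in CPM (x axis) of the cholesterol synthesis genes and of the fatty acid genes in separate panels, for each cell class (y axis) and library, with 95% Poisson intervals as bars. The 18 cholesterol genes sit at 391 to 482 CPM in 4 control immune classes and at 189 to 307 CPM in all 6 PBM immune classes. Control B cells and naive-like T cells lie within that PBM range.

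T cells gave the deepest comparison between libraries, with 2620 control and 6922 PBM cells. Of the 30 genes, 27 were lower and 3 higher in PBM, 13 by more than 2-fold lower and 1 by more than 2-fold higher. Under TMM scaling 7 were more than 2-fold lower, and the share of all genes under that scaling is not given here. The gene on the higher side was Scd1, whose PBM level is set beside RNA of B cells below. Over all genes with at least 20 UMIs, and without TMM scaling, 19.0% were more than 2-fold lower and 6.98% more than 2-fold higher. The median log2 ratio (PBM over Control) of the 30 genes was -0.78, against -0.20 for all genes. The summed cholesterol genes went from 413 CPM to 204 CPM, a log2 ratio of -1.01 (95% counting interval -1.06 to -0.97).

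In the mevalonate arm the counting intervals of all genes but Acat2 lay below 0 in T cells. Hmgcs1, which makes HMG-CoA, stood at 38.5 CPM in Control and 14.4 CPM in PBM, a log2 ratio of -1.42 (-1.58 to -1.26). Idi1, the isomerase of the first isoprene unit, stood at 24.8 and 7.75 CPM, a log2 ratio of -1.68 (-1.89 to -1.47). Fdps, which makes farnesyl diphosphate, stood at 47.4 and 18.02 CPM, a log2 ratio of -1.39 (-1.54 to -1.25). These 3 passed 2-fold. The phosphorylating and decarboxylating enzymes were closer, with log2 ratios of -0.60 for Mvk, -0.74 for Pmvk and -0.69 for Mvd, and Acat2, an acetyl-CoA acetyltransferase, was at 9.06 and 8.91 CPM.

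In the squalene and sterol arm 6 of 11 genes were more than 2-fold lower. Sqle, the squalene epoxidase and a rate-controlling step, had 16.2 CPM in Control and 3.60 CPM in PBM, a log2 ratio of -2.17 (-2.45 to -1.88). Cyp51, the lanosterol demethylase, had 31.9 and 7.35 CPM, a log2 ratio of -2.12 (-2.32 to -1.92). The other genes past 2-fold were the squalene synthase Fdft1 (-1.31), the methyl sterol oxidase Msmo1 (-1.31), the sterol ketoreductase Hsd17b7 (-1.25) and the lanosterol synthase Lss (-1.23). Nsdhl, Ebp and Sc5d, later enzymes of the arm, had log2 ratios of -0.82, -0.72 and -0.90. The reductases Tm7sf2 (15.2 and 16.7 CPM) and Dhcr7 (7.10 and 7.56 CPM) differed by less than their counting intervals.

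Among the regulators, Stard4, a sterol carrier, was at 27.6 CPM in control T cells and 9.37 CPM in PBM T cells, a log2 ratio of -1.56 (-1.75 to -1.36). Insig1, itself a target of SREBP2, was at 9.57 and 4.02 CPM (log2 ratio -1.25). The factors had smaller ratios: -0.65 for Srebf2 (78.5 and 50.2 CPM) and -0.64 for Srebf1 (32.5 and 20.9 CPM). The fatty acid genes were mixed, and Acaca, Fasn and Scd2 were nearest to the median of all genes. Acly, which makes cytosolic acetyl-CoA, had a log2 ratio of -0.52, the carboxylase Acaca -0.34, the synthase Fasn -0.18, the elongase Elovl6 -0.71 and the desaturase Scd2 -0.13. Under TMM scaling, which moves the median of all genes in this comparison from -0.20 to 0.11, Fasn and Scd2 came out at 0.13 and 0.18 and Acat2 at 0.28, so no direction is given for these 3. Fads1, a desaturase of polyunsaturated fatty acids, was at 7.29 and 3.16 CPM (log2 ratio -1.21). Fads2 had 31 UMIs in Control and 1 in PBM (log2 ratio -6.54, interval -11.89 to -3.96). The Sparc-led cells of Control had 70.2 CPM of Fads2, and free RNA from them could have contributed to these 31 UMIs.

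The T cells of the libraries also differed in state, since PBM held mostly naive-like and Control mostly effector and regulatory cells. The 12 proliferation genes were at 643 CPM in control T cells and 269 CPM in PBM T cells. Among T cells with at most 1 UMI of those genes, the summed cholesterol genes had a log2 ratio of -0.88. The part of cell state in the difference was not tested.

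In NK cells 13 of the 30 genes were more than 2-fold lower in PBM and 1 was more than 2-fold higher, against 9.59% and 7.35% of all genes. The higher gene was Scd1, whose PBM level is set beside RNA of B cells below. The median log2 ratio was -0.44 for the 30 genes and 0.07 for all genes. After thinning to 1000 UMIs, 4 genes were more than 2-fold lower, and the share of all genes after thinning is not given here. The difference lay in a few enzymes that were almost absent from the PBM cells: Fdps had 467 UMIs (48.6 CPM) in Control and 3 UMIs (2.98 CPM) in PBM, and Cyp51 had 264 UMIs (27.5 CPM) and 1 UMI (0.992 CPM). Msmo1 had 286 and 3 UMIs, Idi1 269 and 4 UMIs, and Sqle 142 and 2 UMIs. Their log2 ratios were -4.03 (-6.31 to -2.47) for Fdps, -4.79 (-10.10 to -2.30) for Cyp51, -3.32 (-5.61 to -1.76) for Msmo1, -2.82 (-4.70 to -1.44) for Idi1 and -2.90 (-5.96 to -1.02) for Sqle. These 5 intervals lay wholly past 2-fold.

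Hmgcs1 (42.9 and 16.9 CPM), Srebf2 (65.8 and 28.8 CPM) and Stard4 (24.8 and 11.9 CPM) were also more than 2-fold lower in PBM NK cells, as were Mvk, Hsd17b7, Insig1, Fads1 and Fads2 on 1 to 5 PBM UMIs each. Free RNA from Sparc-led cells could have contributed to the control level of Fads2 here too. Other enzymes of the same pathway were not lower. Ebp, the sterol isomerase, was at 52.0 and 65.5 CPM, Tm7sf2 at 12.4 and 18.9 CPM, Lss at 6.76 and 7.94 CPM and Nsdhl at 8.12 and 9.92 CPM, all with intervals that included 0. Elovl6 was higher, at 21.6 CPM in Control and 36.7 CPM in PBM (log2 ratio 0.76, 0.22 to 1.27). Acly, Fasn and Scd2 were at 62.5, 34.7 and 85.3 CPM in PBM against 58.6, 34.8 and 78.8 CPM in Control. Under TMM scaling Acly and Scd2 came out at -0.09 and -0.07, so no direction is given for these genes. The proliferation genes were higher in PBM NK cells (511 against 379 CPM) while the summed cholesterol genes were lower (219 against 391 CPM, log2 ratio -0.83, -1.04 to -0.64).

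Macrophages and monocytes are thin in PBM, with 243172 and 287893 UMIs in all. In macrophages 13 genes were more than 2-fold lower and 1 higher in PBM, against 8.02% and 11.9% of all genes, with a median log2 ratio of -0.67 against 0.00 (a ratio that could not be placed counts as 0). In monocytes 7 of 26 were lower and 1 higher, against 11.1% and 6.96%, with a median of -0.66 against -0.06. At Leiden resolution 0.5, 2 were lower, and the share of all genes at that resolution is not given here. In both classes the higher gene was Scd1, treated below. Fdps, with 2125 UMIs (56.0 CPM) in control macrophages and none in PBM macrophages, was at least 4.54-fold lower when the PBM sum is set to 3 counts, and in monocytes it was at 63.4 and 17.4 CPM (log2 ratio -1.87, -3.50 to -0.63). The decarboxylase Mvd was at 30.7 and 8.22 CPM in macrophages and 27.9 and 6.95 CPM in monocytes. Msmo1 was at 44.8 and 4.11 CPM in macrophages (1 PBM UMI; log2 ratio -3.44, -8.75 to -0.96), but its interval in monocytes included 0 (-1.77 to 0.34).

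The summed cholesterol genes had log2 ratios of -1.35 (-1.80 to -0.93) in macrophages and -0.91 (-1.27 to -0.57) in monocytes. For 5 macrophage genes at 0 UMIs in PBM (Acat2, Lss, Nsdhl, Dhcr7 and Fads2) and for 2 monocyte genes, 3 counts would not place the ratio. Srebf2 did not stand apart in either class, with log2 ratios of -0.25 and 0.12, and neither did Ebp (0.32 and -0.64) or Acly (0.54 and 0.28). PBM macrophages also had a median of 2720.5 UMIs against 8717 in Control and 45.2 CPM of proliferation genes against 334, and their part in the result was not tested. After thinning each cell to 1000 UMIs the macrophage sum had a log2 ratio of -1.25, but the count of genes more than 2-fold lower went from 13 to 1. Why this count fell was not tested.

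B cells differed least. Of 28 genes with a ratio, 5 were more than 2-fold lower in PBM and 2 higher, against 12.3% and 4.84% of all genes, and the median log2 ratio was -0.42 against -0.12. The count of 5 was 2 under TMM or DESeq2 scaling and 10 after thinning to 1000 UMIs, without the matching shares of all genes. The 205 control B cells held 618726 UMIs, so that most genes rested on fewer than 20 control UMIs. Fdft1 had 24.2 CPM in Control (15 UMIs) and 10.2 CPM in PBM, a log2 ratio of -1.25 (-2.00 to -0.39). Mvd had 16.2 CPM (10 UMIs) and 5.20 CPM, a log2 ratio of -1.64 (-2.56 to -0.54), and the intervals of Cyp51 (-2.05 to -0.06) and Msmo1 (-1.96 to -0.07) also stayed below 0. Idi1 and Tm7sf2 were the genes on the higher side, on 1 and 5 control UMIs, with intervals that included 0. The summed cholesterol genes went from 257 to 195.0 CPM (log2 ratio -0.40, -0.63 to -0.16), and this ratio was -0.12 under TMM scaling.

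**Figure D2:**
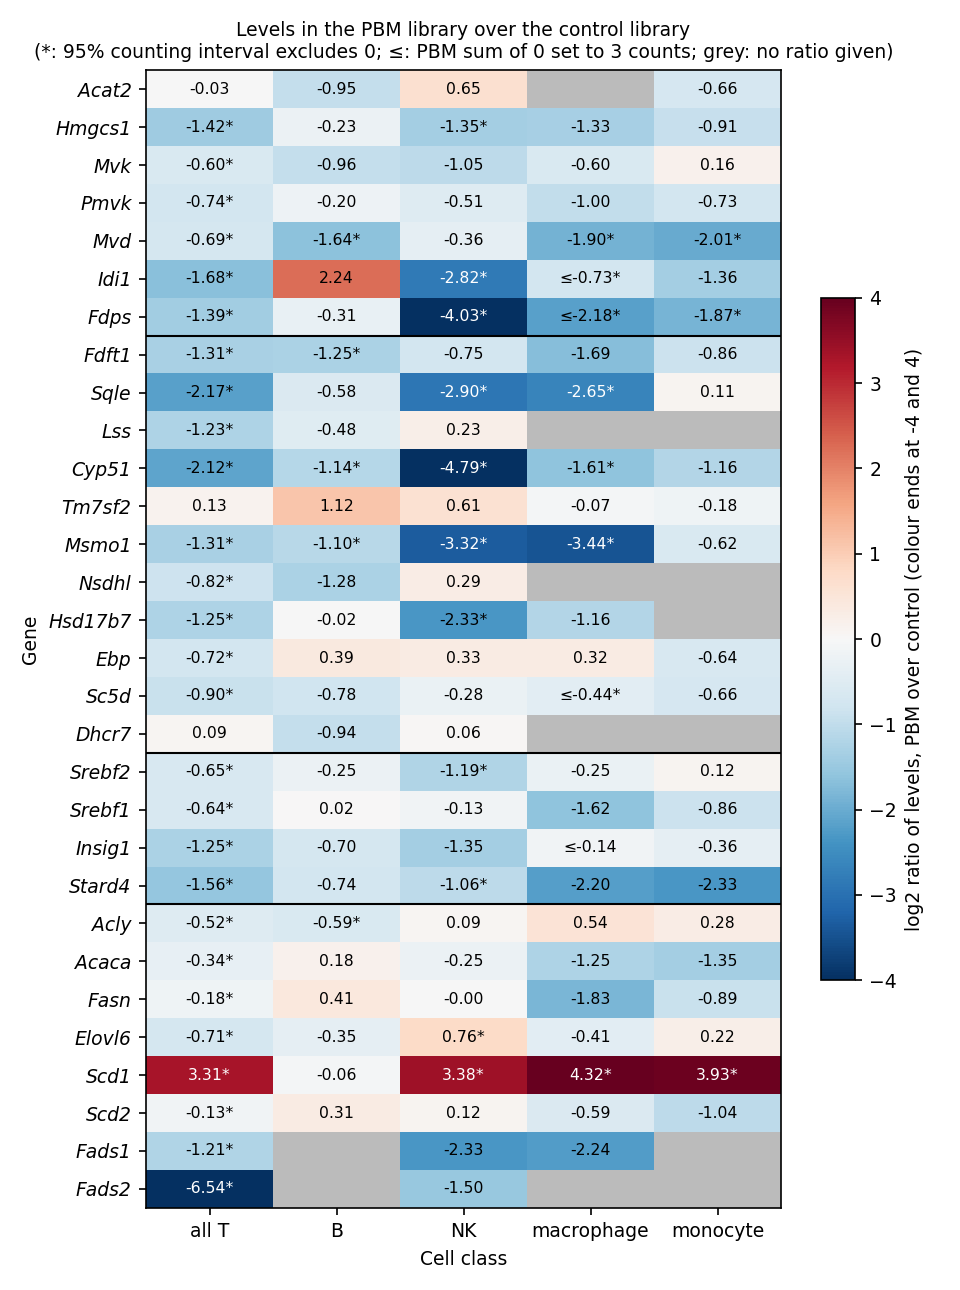
Each row is a gene and each column a cell class; colour and number give the log2 ratio of the PBM level over the control level, an asterisk a 95% counting interval that excludes 0, and grey no ratio. The upper rows of cholesterol genes are mostly negative in all 5 classes, while Scd1 is at 3.31 to 4.32 in all but B cells, where it is at -0.06.

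Because the classes hold different states in each library, the sum was also compared inside single clusters, a step chosen once the data had been seen. A single cluster can still hold different states in each library. When T cells were clustered again, regulatory cells fell into a Klrg1-led cluster of 577 control and 10 PBM cells and a Tiam1-led cluster of 9 and 822. A Klra1-led cluster (346 and 142) and an Il17re-led cluster (32 and 69) were mixed. Whether state differed inside the compared clusters was not tested. In the 9 clusters with at least 50 cells of both libraries the cholesterol genes were lower in PBM in 9 of 9, with log2 ratios from -1.55 to -0.40 and all 9 counting intervals below 0. The largest ratio was in a Cd209a-led cluster, left unnamed because its leading genes went against the class whose markers it met (1072 and 367 CPM; 310 and 106 cells). Its control interval, 1030.3 to 1116 CPM, overlapped that of the Sparc-led cells. Among T cells, the Foxp3-led cluster went from 497 to 376 CPM, an Izumo1r- and Cd4-led cluster from 403 to 267 CPM, a cluster led by Dapl1, Crtam and Cxcr3 from 258 to 160.3 CPM, and a Cd40lg- and Lef1-led cluster from 308 to 221 CPM on 51 control cells. An Arg1-led macrophage or monocyte cluster went from 518 to 192 CPM and an Ace- and Treml4-led one from 414 to 260.4 CPM.

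The proliferation genes were also lower in PBM in 4 of the 9 clusters, at 245 and 34.3 CPM in the Arg1-led, 98.4 and 38.4 CPM in the Ace-led, 205 and 153 CPM in the Cd209a-led and 95.1 and 77.5 CPM in the Cd40lg-led cluster. They were higher in PBM in the other 5, which were the B cells (126 and 146 CPM), the NK cells and 3 T cell clusters: 851 and 1468 CPM in the Foxp3-led, 424 and 732 CPM in the Izumo1r-led and 124 and 529 CPM in the Crtam-led cluster. The counting interval of the proliferation log2 ratio included 0 in the B cell cluster (-0.13 to 0.58) and in the Cd40lg-led cluster (-0.98 to 0.49). The part of cycling in the differences of the cholesterol genes was not tested. The fatty acid genes without Scd1 were lower in PBM in 6 of the 9 clusters, with log2 ratios from -0.81 to 0.11. All 9 compare the same pair of libraries.

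**Figure D3:**
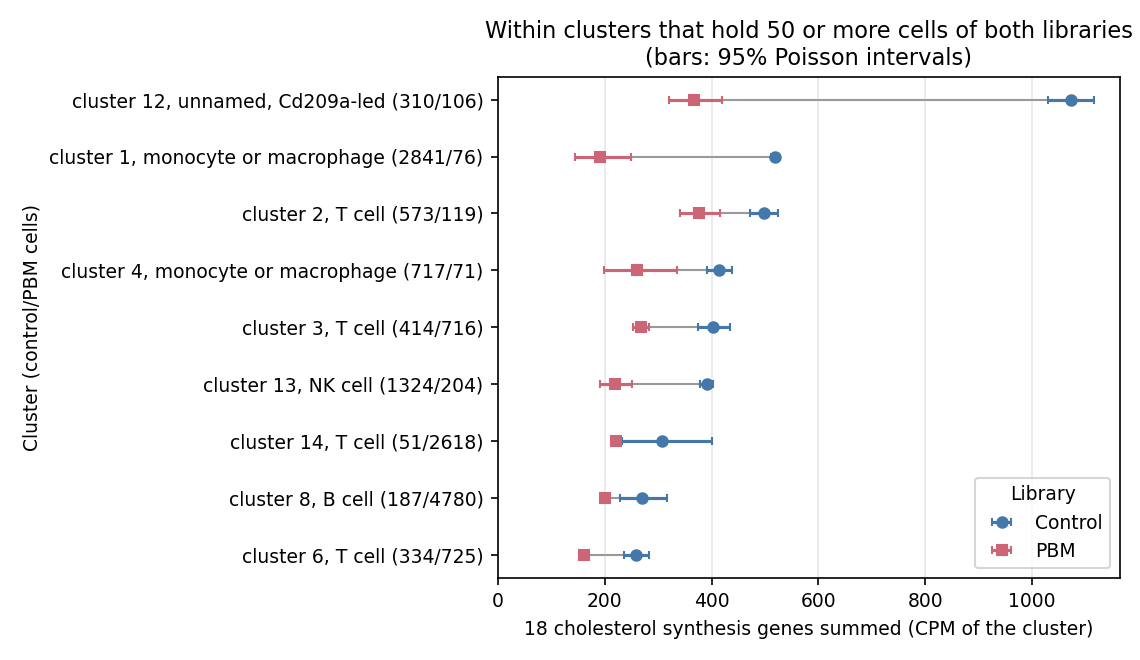
Summed cholesterol synthesis genes in CPM (x axis) for control and PBM cells of the 9 clusters that hold at least 50 cells of both libraries (y axis, with cell numbers), bars being 95% Poisson intervals. The PBM point lies to the left of the control point in all 9.

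Scd1, the desaturase that makes oleate from stearate, had its highest levels in B cells in these data. B cells had 441 CPM (390 to 497) in Control and 422 CPM (414 to 430) in PBM, a log2 ratio of -0.06 (-0.24 to 0.11). With each cell thinned to 1000 UMIs, 34.6% of control and 32.8% of PBM B cells had a Scd1 UMI (exact binomial intervals 28.1 to 41.6% and 31.6 to 34.0%); without thinning these shares were 62.0% and 77.8%. Sparc-led cells had 69.9 CPM, the highest level in Control after B cells, and 7.76% of them had a UMI after thinning.

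In the other immune classes Scd1 was at 2.87 to 4.77 CPM in Control and 34.8 to 72.9 CPM in PBM, among classes with more than 23 cells. NK cells had 3.54 and 36.7 CPM (log2 ratio 3.38, 2.66 to 4.09), macrophages 3.51 and 69.9 CPM (4.32, 3.50 to 5.05) and monocytes 4.77 and 72.9 CPM (3.93, 2.98 to 4.89). The 11 B cell markers were also higher in these classes of PBM. They summed to 18.1 CPM in macrophages, 44.4 in monocytes and 22.4 in NK cells of Control. In the same classes of PBM they summed to 1053, 1306 and 699 CPM. B cells were 1.85% of the control library and 42.9% of the PBM library. A free-RNA estimate from the markers of other classes could supply 93.7% of the Scd1 level in PBM T cells, 87.0% in NK cells, 63.6% in monocytes and 54.6% in macrophages. Subtracting it lowered the ratio in T cells from 3.31 to 1.09 and in NK cells from 3.38 to 2.06, while in macrophages and monocytes, where the PBM sums were 17 and 21 UMIs, it was 5.08 and 3.90. Scd2, a close paralog, had no such pattern, with 50.1 and 62.2 CPM in B cells. The part of free RNA in the Scd1 levels of the T, NK, macrophage and monocyte classes was not tested.

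**Figure D4:**
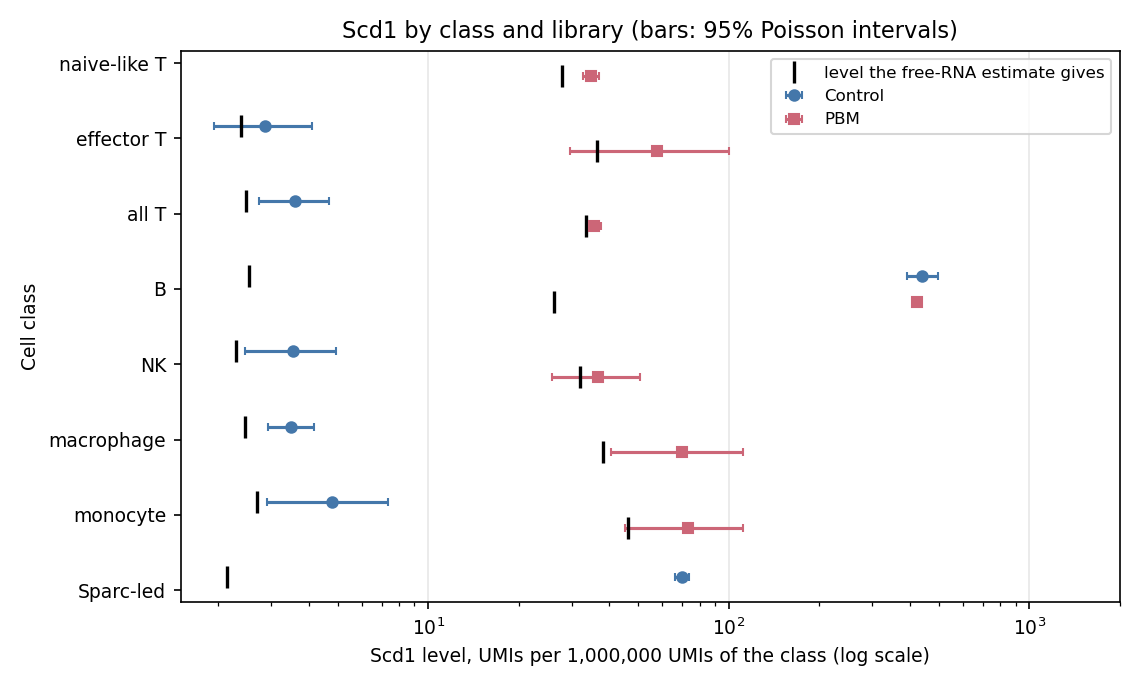
Scd1 level in CPM on a log scale (x axis) by cell class (y axis) and library, with 95% Poisson intervals; black ticks mark the level that the free-RNA estimate gives. B cells lie at 441 and 422 CPM far from their ticks, while PBM T and NK cells lie close to theirs.

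Effector and naive-like T cells could only be compared across libraries, 1601 effector cells of Control against 4566 naive-like cells of PBM, so that cell state and library cannot be told apart. The effector cells had 12 genes more than 2-fold higher and 1 more than 2-fold lower of 29, against 19.8% and 9.33% of all genes, with a median log2 ratio of 0.81 against 0.19. Cyp51 was at 34.8 CPM in effector and 6.26 CPM in naive-like cells (log2 ratio 2.47, 2.21 to 2.74), Sqle at 16.3 and 3.46 CPM (2.23, 1.87 to 2.60) and Stard4 at 32.2 and 8.58 CPM (1.91, 1.67 to 2.15). Idi1, Fdft1, Fads1, Hmgcs1, Fdps, Hsd17b7, Insig1, Lss and Msmo1 followed, from 1.82 to 1.15. The gene on the lower side was Scd1 (2.87 and 34.8 CPM), for which the free-RNA estimate could supply 79.9% of the naive-like level. The proliferation genes differed more, with all 12 past 2-fold and 696 against 55.1 CPM. The 39 effector cells of PBM had a summed level of 307 CPM between these groups, and the 23 naive-like cells of Control had 257 CPM; both are under the 50 cells set for a ratio.

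Further pairs of immune classes were compared within a library. In Control, NK cells against effector T cells had no gene more than 2-fold lower and 1 higher, against 7.11% and 6.23% of all genes, with equal medians of -0.02: Elovl6 was at 21.6 CPM in NK and 7.84 CPM in effector T cells (log2 ratio 1.47, 1.09 to 1.85). Macrophages against monocytes of Control had no gene lower and 3 higher, against 7.96% and 14.6% of all genes, with medians of 0.13 and 0.07. These were the desaturases Fads1 (19.4 and 3.58 CPM, log2 ratio 2.44) and Fads2 (6.11 and 1.43 CPM, 2.10) and, at the threshold, Sqle (25.9 and 12.9 CPM, 1.01). In PBM, B cells against naive-like T cells had 2 genes lower and 2 higher of 29, against 12.8% and 12.1%, with medians of -0.09 and 0.01. Elovl6 (1.26 and 8.27 CPM) and Fads1 (0.470 and 2.73 CPM) were lower in B cells, Scd1 and Pmvk (38.1 and 17.6 CPM) higher, and the summed cholesterol genes differed by a log2 ratio of -0.03 (-0.09 to 0.02).

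The Sparc-led cells had the highest level of 19 of the 30 genes among the 13 combinations of class and library with at least 20 cells. Against control macrophages 16 genes were more than 2-fold higher and none more than 2-fold lower, against 27.1% and 17.8% of all genes, with a median log2 ratio of 1.19 against 0.30. In the mevalonate arm Fdps was at 254 CPM against 56.0 CPM (log2 ratio 2.18, 2.11 to 2.25), Acat2 at 51.0 against 6.04 CPM (3.08, 2.87 to 3.29), Idi1 at 90.5 against 20.5 CPM (2.14) and Hmgcs1 at 119 against 41.5 CPM (1.52). In the sterol arm Lss, Sqle, Fdft1, Nsdhl, Msmo1 and Cyp51 were past 2-fold, from 1.94 to 1.18. No regulator was, Srebf2 being at 94.4 against 63.6 CPM and Srebf1 at 20.6 against 25.2 CPM.

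The fatty acid genes showed the widest gaps between these cells. Scd1 was at 69.9 against 3.51 CPM, Fads2 at 70.2 against 6.11 CPM (log2 ratio 3.52, 3.32 to 3.73), Elovl6 at 35.4 against 5.46 CPM (2.70), Fasn at 51.1 against 14.6 CPM (1.81), Fads1 at 49.0 against 19.4 CPM (1.34) and Scd2 at 199.9 against 86.4 CPM (1.21). Acly was at 81.5 against 76.2 CPM (log2 ratio 0.10). Ebp was lower in the Sparc-led cells, at 43.4 against 62.5 CPM, as was Pmvk, at 38.0 against 49.2 CPM.

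Levels differed within the Sparc-led cells too. Over 10 sub-clusters, kept by number, the summed cholesterol genes ran from 519 CPM in the Mt1- and Cryab-led one to 1360.5 CPM in the Knl1- and Cenpe-led one. The latter had 2504 CPM of proliferation genes and a median of 40223.5 UMIs per cell. A Ube2c- and Prc1-led sub-cluster had more of the proliferation genes (3101 CPM) but 694 CPM of the cholesterol genes and a median of 2384 UMIs. A Mir100hg- and Hmga2-led one had 301 CPM of proliferation genes and 1261 CPM of cholesterol genes. The Cxcl10- and Isg15-led sub-cluster had 1317 CPM, and the Dcn- and Col3a1-led ones 573 and 674 CPM. Sparc-led cells with 2 or more proliferation UMIs had 1179 CPM of the cholesterol genes, against 669 CPM in the rest. The part of depth and of cycling in these levels was not tested. With at most 1 proliferation UMI per cell, the log2 ratio of the summed genes against macrophages was 0.54 instead of 1.19.

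**Figure D5:**
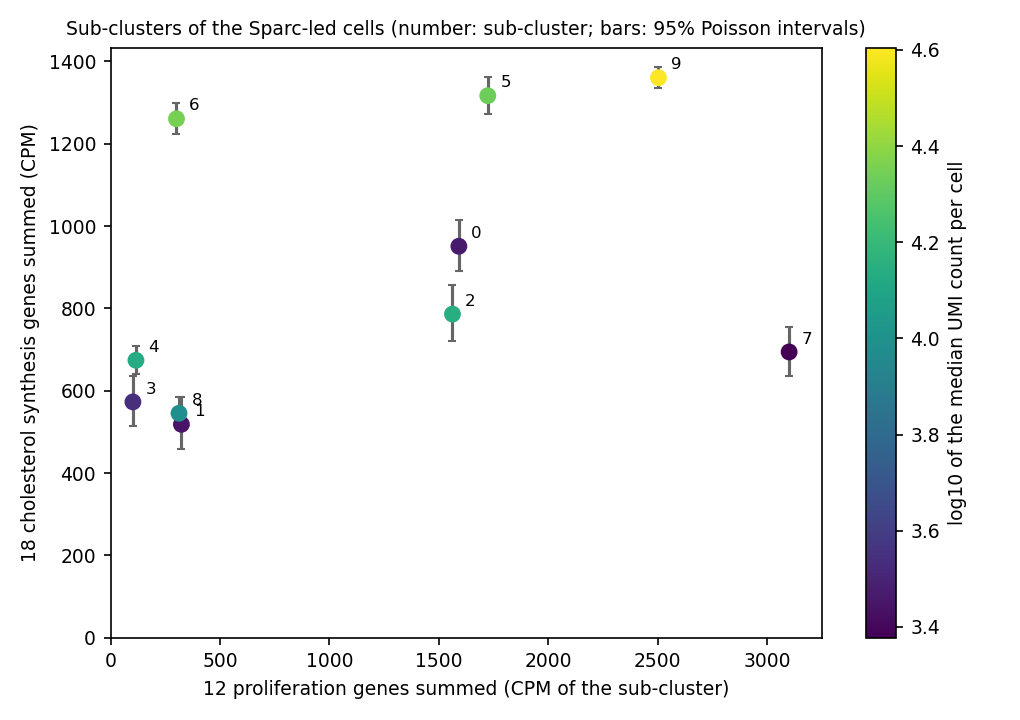
Each numbered point is a sub-cluster of the Sparc-led control cells: the x axis gives the summed proliferation genes and the y axis the summed cholesterol synthesis genes, both in CPM, with 95% Poisson intervals, and colour the log10 of the median UMI count per cell. Cholesterol levels run from 519 to 1360.5 CPM, and the point with the most proliferation UMIs, at 3101 CPM, lies at 694 CPM.

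Within other classes, cells with 2 or more proliferation UMIs had more of the cholesterol genes in most cases. Effector T cells of Control had 492 CPM in such cells and 368 CPM in the rest, NK cells of Control 466 and 333 CPM, macrophages of Control 499.7 and 462 CPM, and B cells of PBM 259 and 189 CPM. Control monocytes went the other way, at 378 CPM in 63 such cells and 475 CPM in the rest, as did control B cells, at 221 CPM in 14 such cells and 261 CPM in the rest, and PBM macrophages, at 139 CPM in 3 such cells and 196 CPM in the rest. Cells with more UMIs in all are more likely to reach 2 proliferation UMIs, and this was not corrected.

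Other genes of the pathway, taken from lists fixed by name, are given next. In NK cells Acss2, which makes acetyl-CoA from acetate, was higher in PBM (16.5 and 49.6 CPM, log2 ratio 1.58). None of the 7 genes that process SREBP passed 2-fold in T cells, where 19.0% of all genes were lower and 6.98% higher. In NK cells 1 of 7 did in each direction, near the 9.59% and 7.35% of all genes. Sparc-led cells exceeded macrophages in the malic enzyme Me1 (5.23), in Acsl3 (1.74) and in the SREBP protease Mbtps1 (1.49).

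The export and uptake lists held genes in both directions. Abcg1, a sterol exporter, and Mylip, a ubiquitin ligase, are both LXR targets, and both were higher in PBM: 25.3 and 72.1 CPM for Abcg1 (log2 ratio 1.51) and 13.5 and 39.3 CPM for Mylip (1.54) in T cells, and 29.4 and 106 CPM (1.85) and 35.5 and 103 CPM (1.54) in NK cells. Abca1 was also higher in PBM NK cells, at 9.16 and 31.8 CPM (1.79). PBM B cells exceeded PBM naive-like T cells in Abca1 and Mylip, and B cell markers summed to 22.4 and 699 CPM in NK cells of Control and PBM. Free RNA of B cells could thus have contributed to these 2 genes in PBM. Abcg1 and Mylip also differed between naive-like and effector T cells, as given below. The part of free RNA and of cell state in these ratios was not tested. In macrophages Nr1h3, the LXR alpha receptor, was higher in PBM (8.86 and 49.3 CPM, log2 ratio 2.48), Ch25h, which makes an oxysterol, had 2022 UMIs and none (at least 4.32-fold lower) and Apoe was at 5786 and 2315 CPM. Mki67, Top2a and Pclaf had 1791, 1850 and 1945 UMIs in control macrophages and none in PBM.

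Several export and uptake genes in lymphocytes are known macrophage genes. Lrp1, Fabp5 and Apoe had log2 ratios (PBM over Control) of -5.61, -2.40 and -4.22 in T cells and -5.76, -3.24 and -1.78 in B cells. In NK cells those of Fabp5 and Apoe were -3.07 and -4.29, and Lrp1 had 253 UMIs in Control and none in PBM. The free-RNA estimate could supply 105.9% of the Apoe level, 94.7% of Lrp1 and 42.2% of Fabp5 in control T cells, and 112% of Lrp1, 72.6% of Fabp5 and 54.6% of Apoe in control B cells. The 12 macrophage markers summed to 1117 CPM in T cells, 1228 in B cells and 1596 in NK cells of Control, and to 34.4, 149 and 57.6 CPM in the same classes of PBM. No direction in lymphocytes between the libraries is read for Apoe, Lrp1 or Fabp5. Ch25h, Lpl and Fabp4, lower in PBM T cells, rested on 36, 27 and 18 control UMIs, to which free RNA could have contributed. In the same cells Mki67, Cdk1, Top2a and Pclaf had log2 ratios from -1.47 to -1.38.

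Effector T cells of Control against naive-like T cells of PBM had 5 of 8 uptake genes more than 2-fold higher, against 19.8% of all genes, among them Scarb1 (1.62). The 5 include Lrp1 and Fabp5, for which no direction between the libraries is read, so nothing is drawn from this count. Abcg1 (-2.05) and Mylip (-2.00) were lower in these effector cells, and Cpt1a, the carnitine transferase of fatty acid oxidation, was higher (1.30). Ch25h had 25 UMIs against none, and free RNA of control macrophages could have contributed to these UMIs. Apoe, Lrp1 and Fabp5, with the free-RNA shares given for T cells above, had log2 ratios of 4.30, 5.84 and 3.04. Mki67, Pclaf, Cdk1 and Ccna2 had log2 ratios from 4.87 to 4.53. In Sparc-led cells 8 of 10 LXR and efflux genes and 7 of 10 uptake genes were more than 2-fold lower than in macrophages, against 17.8% of all genes, led by Ch25h (-4.79), Apoe (-4.61), Abca1 (-4.22), Nr1h3 (-3.72), Lpl (-3.77), Cd36 (-3.36), Fabp5 (-2.87) and Npc1 (-1.97). All 12 proliferation genes were more than 2-fold higher there, against 27.1% of all genes, led by Cdc20 (2.99), Ube2c (2.60), Ccna2 (2.44) and Top2a (2.28).

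Between control macrophages and monocytes, Ch25h (4.22), Abca1 (3.25), Npc1 (1.37) and Fabp5 (1.28) were higher in macrophages, and Fabp4 (-2.80) and Scarb1 (-1.90) in monocytes. Mki67, Pclaf, Birc5 and Ccnb1 were higher in macrophages, with log2 ratios from 2.77 to 2.16. NK cells exceeded effector T cells of Control in Mylip (1.84) and were below them in Ccnb1 (-1.48) and Birc5 (-1.30). PBM B cells exceeded naive-like T cells in Apoe (3.52), Abca1 (1.71), Mylip (1.42), Cd36 (3.96), Pclaf (2.65), Cdk1 (1.87), Mki67 (1.74) and Ccna2 (1.66). They were below them in Npc2 (-1.82), Lipa (-1.40) and Acss2 (-1.84).

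Across the 13 combinations of class and library, not all 30 genes followed the summed cholesterol level. As a description, on log2(CPM + 1), Pearson's r with that sum was 0.88 for Hmgcs1 and Sqle, 0.86 for Fdft1, 0.85 for Fads2, 0.81 for Fads1 and 0.79 for Idi1. It was 0.02 for Ebp, -0.02 for Tm7sf2 and -0.29 for Scd1. The points share 2 libraries, and the sum contains the cholesterol genes themselves. Of 8660 other genes, the 10 most alike were Dpysl3, Tnnt2, Exoc3l4, Maged1, Timp3, Mical2, Col6a1, Tm4sf1, Nwd1 and Samd4, with r from 0.95 for Dpysl3 to 0.93 for Samd4. All 10 had their highest level in the Sparc-led cells, which also set the top of the sum.

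Genes of this set overlap other annotated genes at several places, among them Hmgcs1, Mvd, Idi1, Fdps, Fdft1, Lss, Cyp51, Tm7sf2, Srebf1, Acaca and Elovl6. Whether counting used strand is not given in the sources used here, so UMIs of overlapping genes could be assigned to either.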

How the data were processed

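The deposited matrices hold whole-number UMI counts per gene and cell barcode, 1 matrix per library. Cell Ranger 7.2.0 and build mm10 are named per the submitters' processing notes, and PISA 0.12 per the file headers; which program made these counts could not be settled, and filters before deposit are not given in the sources used here. The barcodes are serial numbers, so cells shared between the libraries could not be looked for.

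Barcodes with under 500 UMIs, under 200 genes or over 10% mitochondrial UMIs were removed (11 in Control, 1 in PBM), as were doublets called per library by Scrublet in scanpy 1.11.5 (128 and 899, or 1.14% and 6.44%). Both libraries were clustered together with no integration, without the 30 genes and without mitochondrial, ribosomal, cell-cycle and antigen-receptor genes (2000 variable genes, 30 components, 15 neighbours, Leiden resolution 1.0). Clusters were named from fixed markers by a rule that was revised after a first clustering had been seen. The name was that of the class for which most of the list was met (a marker at 1.5 times the mean and in 10% of cells), and a cluster stayed unnamed with under 3 markers or with leading genes of another class. T and myeloid cells were clustered again in the same way with 20 components.

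Raw UMIs were summed per class and library and divided by the class total (CPM, UMIs per 1000000). Intervals are exact Poisson for levels and exact conditional binomial for log2 ratios, at 95%. Ratios were given for classes of at least 50 cells on both sides, which left 10 of 15 planned comparisons, and were called past 2-fold among genes with at least 20 UMIs. A side at 0 was set to 3 counts. The free-RNA estimate took, for each class and library, the median level of other classes' markers relative to the whole library. 3′ counts do not scale with gene length, so levels are compared between cells and not between genes. Alternatives included edgeR 4.0.16 TMM factors and DESeq2 1.42.0 size factors, both used for scaling only. The summing and ratio steps were tested on simulated data.

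All 30 genes are named. Of the other lists, the genes named are those whose interval lay wholly past 2-fold, up to 4 per list and comparison by size. Some results of the other lists are not reported here. The genes and lists were chosen with earlier results of these data known.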

Additional observations from a re-analysis of the deposited data

How the results depend on the processing

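The summed cholesterol genes kept their direction between libraries in the 5 classes compared, under each of the 13 alternatives that gave a value and within single clusters. Their log2 ratio (PBM over Control) ranged from -1.11 to -0.40 in T cells, -1.02 to -0.63 in NK cells, -1.48 to -1.21 in macrophages, -1.05 to -0.60 in monocytes and -0.53 to -0.11 in B cells. Between control macrophages and monocytes it ranged from -0.15 to 0.28. Counts past 2-fold moved more, and the shares of all genes under the alternatives are not given beside them. Of 13 genes lower in PBM T cells, 7 were left under TMM scaling. Of 5 lower in B cells, 2 were left under TMM and 2 under DESeq2 size factors, while thinning each cell to 1000 UMIs gave 10 and clustering each library on its own 8. Of 13 lower in NK cells 4 were left after thinning, and of 13 in macrophages 1. Of 7 lower in monocytes, 2 were left at Leiden resolution 0.5. With free RNA subtracted, 5 genes in place of 3 were higher in macrophages than in monocytes, and 3 in place of 1 in NK than in effector T cells (2 under TMM). Of 2 genes lower in B than in naive-like T cells, 1 was left with a minimum of 100 UMIs and 1 after thinning. Among ratios past 2-fold, or sums whose interval excluded 0, those that changed sign were Fads2 in NK cells (0.56 with free RNA subtracted), Hsd17b7 in macrophages (1.20 after thinning) and the summed fatty acid genes of effector against naive-like T cells (0.12, but -0.20 under TMM and -0.18 under DESeq2 size factors). Smaller values changed sign more often: the summed fatty acid genes ranged from -0.26 to 0.25 in T cells, -0.18 to 0.20 in B cells and -0.01 to 0.41 in macrophages. Where no construction is named, the cause was not tested. Macrophages gave no ratio with doublets kept (44 PBM cells) or at resolution 2.0 (40). No paired analysis was possible because each group has 1 library, and leaving out a library was not possible for the same reason.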
